A study of Rattus norvegicus with 8 samples.

Results

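The extracellular matrix and proteoglycan genes of the rat head were followed at E12.5 through 107 probe sets, which read 72 genes, of 8799 probe sets on the array. They were chosen by name alone: every probe set annotated with a single symbol that begins as a collagen, laminin, glypican, syndecan, chondroitin sulphate proteoglycan (Cspg), matrix metalloproteinase, TIMP, integrin or thrombospondin gene, together with Fn1, Sparc, Sparcl1, Spp1, Ncan, Bcan, Vcan, Acan, Dcn, Bgn, Lum, Eln, Nid1 and Tnc. The 8 arrays fell into 4 groups of 2: Pax6 homozygous forebrain, wild-type forebrain, Pax6 homozygous hindbrain and wild-type hindbrain, all from rat embryos of one stage. Pax6 encodes a paired-domain transcription factor of the eye, nose, forebrain and hindbrain, and the arrays compare embryos labelled homozygous for it with wild-type embryos. The forebrain part was cut off at the isthmus and also held the midbrain and the eye and nose primordia. The pharyngeal arches stayed with the hindbrain, which was cut at the forelimb level. The labels name no allele, and do not state how many embryos an array holds or whether paired arrays are separate litters. Every p-value given here therefore rests on array-to-array spread, which may be technical.

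The extracellular matrix is the meshwork that cells secrete and hold on to. Fibrillar collagens give tensile strength to mesenchyme, basement membranes of type IV collagen, laminin and nidogen underlie epithelia and the neural tube, and proteoglycans carry sugar chains that bind water and growth factors. Integrins and syndecans anchor cells to this meshwork, metalloproteinases cut it and TIMPs block those enzymes. In the embryonic head most fibrillar collagen is made by neural crest and mesoderm mesenchyme, while neural proteoglycans such as neurocan and neuroglycan C belong to the developing neural tissue itself.

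The values are linear intensities, 1 per probe set and array, which differ between probe sets for reasons other than RNA amount, so no gene is ranked against another here. A noise level was set for each array as the size of its 5th percentile of intensity, 243.3 to 619.8. Of the 107 member probe sets, 47 (34 genes) lay above noise on all 8 arrays, 28 on some and 32 on none. The share above noise on all arrays was 43.9% among members and 42.8% among the rest of the array. A filter on dim probe sets left 76 member probe sets (55 genes) among 5881 tested, and the other 31 are described only by their levels.

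Which matrix genes were read above noise differed by family. All 4 TIMP probe sets and 10 of 13 for glypicans and syndecans lay above noise on every array, as did 10 of 13 for fibrillar collagens. Of 16 integrin probe sets 3 did so, for Itga1, Itga2b and Itgb1. Among metalloproteinases, 5 of 13 probe sets did so, for Mmp2 (both of its probe sets), Mmp11, Mmp14 and Mmp16, while those of Mmp3, Mmp8, Mmp9, Mmp10, Mmp12, Mmp13 and Mmp23 lay above noise on no array. Both Ncan probe sets (neurocan) and those of Acan (aggrecan of cartilage), Cspg4 (the NG2 proteoglycan), Eln (elastin), Nid1 (nidogen), Thbs4, Sdc3, Col4a3, Lama2, Lama3 and Lama5 also had no array above noise. An intensity below noise gives no level for a gene and can also reflect a probe set that reads its target poorly. Col2a1, for example, had 1 probe set (L48618_at) with no array above noise and another (AJ224879_at) at 10521 to 20368. Tests were run with limma across all 5881 probe sets, p-values were adjusted by the Benjamini-Hochberg method with a threshold of 0.05, and the sign of each log2 difference is given as Pax6 homozygous minus wild-type or as forebrain minus hindbrain.

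No matrix or proteoglycan probe set passed the genotype test in either region. In forebrain 0 of 76 passed, where 0.017% of all probe sets tested did, and 3 members (3.95%) had an unadjusted p under 0.05, where 2.92% of all did. In hindbrain 0 of 76 passed, again with 0.017% of all probe sets, and 5 members (6.58%) had an unadjusted p under 0.05, where 4.49% of all did. The median log2 difference of the members was -0.0002 in forebrain (0.01 over all probe sets tested) and 0.08 in hindbrain (0.04 over all). Higher and lower values were nearly balanced, with 37 positive and 38 negative differences in forebrain (51.2% and 48.5% of all probe sets) and 41 and 35 in hindbrain (54.3% and 45.5% of all). Pax6 homozygous and wild-type arrays did not overlap for 22 members (28.9%) in forebrain, where 22.8% of all probe sets did not, and for 32 (42.1%) in hindbrain, where 34.4% of all did not. For 30 of the 76 probe sets in forebrain (22 genes) and 32 in hindbrain (25 genes), the 95% interval of the difference lay within 2-fold in either direction. For the rest these arrays do not limit the genotype difference to less than 2-fold. Mesenchyme markers, 8 probe sets, had sums of 54470 and 57790 in Pax6 homozygous forebrain, against 59360 and 56270 in wild-type forebrain, and of 52480 and 50800 in Pax6 homozygous hindbrain, against 62690 and 50110 in wild-type hindbrain. None of them passed for genotype. Vim, which is also a neural progenitor marker, makes up most of these sums, and without it the other 7 gave 18980 and 23400 in Pax6 homozygous forebrain, against 19390 and 22160 in wild-type forebrain, and 15210 and 16550 in Pax6 homozygous hindbrain, against 17950 and 15700 in wild-type hindbrain. Alx1 had the list's smallest p for genotype, in hindbrain, where its arrays were separated (378 and 232 in the Pax6 homozygous group, against 116 and 128 in wild-type) but none lay above noise. All 8 blood marker probe sets had negative forebrain genotype differences (48.5% of all probe sets did), with 0 past the test. Their sums were 155700 and 158200 in Pax6 homozygous forebrain, against 186800 and 201700 in wild-type forebrain. In hindbrain 5 of the 8 were negative (45.5% of all), with 0 past the test. The sums there did not overlap either, with 150800 and 152000 in the Pax6 homozygous group, against 173300 and 164900 in wild-type. Of 15 neuron marker probe sets 12 had negative hindbrain differences (45.5% of all probe sets did), with 0 past the test. Their sums were 79540 and 81550 in Pax6 homozygous hindbrain, against 104200 and 115400 in wild-type hindbrain. The 2 Ina probe sets weigh on these sums. M73049_at gave 10326 and 9638 in Pax6 homozygous hindbrain, against 17907 and 18647 in wild-type hindbrain. For rc_AA875659_s_at the values were 10302 and 9203, against 17269 and 15727. The 3 endothelial marker probe sets overlapped between genotypes in both regions. Of 18 neural progenitor marker probe sets (10 genes), 12 had negative forebrain differences (48.5% of all probe sets did). In hindbrain 14 were negative (45.5% of all). Over both regions their median was -0.16 (0.03 over all probe sets tested). Pax6 itself is in this list, with a log2 difference of 0.55 ± 0.30 over both regions. Only 1 of the 18, Fabp7, had all 4 Pax6 homozygous arrays below all 4 wild-type arrays. The list's sums did not overlap, with 116400 and 104400 in Pax6 homozygous forebrain, against 131600 and 137900 in wild-type forebrain. In hindbrain the sums were 117700 and 124600 in the Pax6 homozygous group, against 160300 and 144700 in wild-type. Single bright probe sets weigh on these sums. Fabp7 had 1190 and 1205 in Pax6 homozygous hindbrain, against 16568 and 15111 in wild-type hindbrain. Id3 rc_AI171268_at had 22754 and 11782 in Pax6 homozygous forebrain, against 25039 and 36491 in wild-type forebrain. The part of these cell types in the member differences was not tested, and in bulk tissue fewer cells of a type and less RNA per cell cannot be told apart. Fabp7, a fatty acid binding protein of neural progenitors, was the 1 probe set that passed in each region, with log2 differences of -2.81 ± 0.23 (SE) in forebrain and -3.72 ± 0.23 in hindbrain, and adjusted p-values of 0.00577 and 0.000558.

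**Figure D1:**
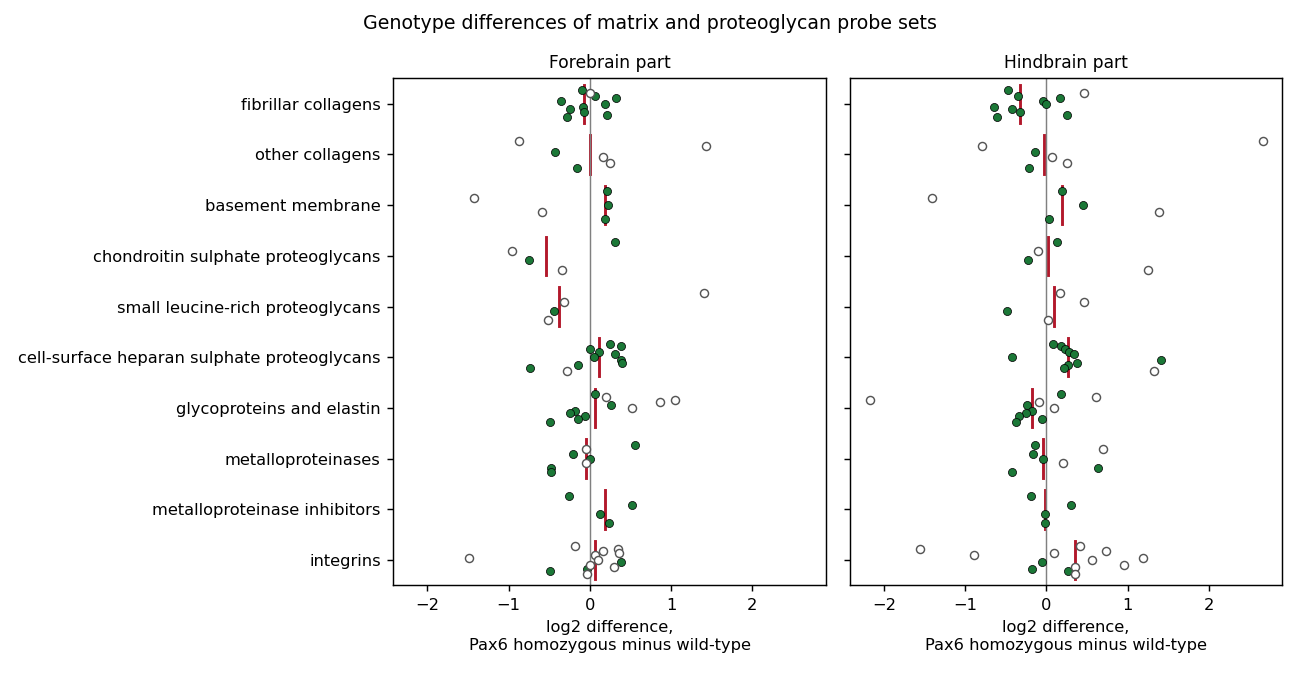
Log2 difference between Pax6 homozygous and wild-type arrays for each of the 76 tested probe sets, by family (vertical axis), in forebrain (left) and hindbrain (right). Filled points lay above noise on all 8 arrays, open points did not, red lines mark family medians, and no point passed the test: fibrillar collagens have a median of -0.32 in hindbrain and cell-surface heparan sulphate proteoglycans one of 0.27.

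Among fibrillar collagens, the 4 probe sets of Col1a1, the main chain of type I collagen, all had negative differences in both regions. The 2 with the smallest p in hindbrain were rc_AI231472_s_at and Z78279_at. The first of these gave 5893 and 5550 in Pax6 homozygous hindbrain, against 9033 and 8459 in wild-type hindbrain. Its Pax6 homozygous hindbrain arrays lay below both wild-type ones, with a log2 difference of -0.61 ± 0.25 (SE, adjusted p = 0.989, limma). In forebrain the same probe set gave 4019 and 6537 in the Pax6 homozygous group, against 6980 and 5538 in wild-type, and the groups overlapped (log2 difference -0.28 ± 0.25). Z78279_at gave 2698 and 1873 in Pax6 homozygous hindbrain, against 3776 and 3254 in wild-type hindbrain, again without overlap (log2 difference -0.64 ± 0.26, adjusted p = 0.989). A further Col1a1 probe set, M27207mRNA_s_at, overlapped between genotypes there. It gave 15074 and 12207 in Pax6 homozygous hindbrain, against 12998 and 15036 in wild-type hindbrain (log2 difference -0.04 ± 0.22), and its forebrain difference was -0.35 ± 0.22. The log2 differences of the 4 probe sets therefore ran from -0.64 to -0.04 in hindbrain and from -0.35 to -0.09 in forebrain.

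Col1a2, the partner chain of type I collagen, had 7918 and 6856 in Pax6 homozygous hindbrain, against 8352 and 10136 in wild-type hindbrain, without overlap (log2 difference -0.32 ± 0.24). Col5a1, a chain of the type V collagen that is built into type I fibrils, had a difference of -0.47 ± 0.25 in hindbrain, and Col2a1, the collagen of cartilage and notochord, of -0.35 ± 0.19. Col3a1, type III collagen of soft connective tissue, had its Pax6 homozygous arrays above the wild-type arrays in forebrain in both probe sets. Its probe set X70369_s_at gave 23080 and 22243 in Pax6 homozygous forebrain, against 20361 and 19370 in wild-type forebrain, and 24004 and 20495 in Pax6 homozygous hindbrain, against 25472 and 19337 in wild-type hindbrain. The log2 differences were 0.19 ± 0.16 and -0.0008 ± 0.16, with 95% intervals of -0.18 to 0.56 in forebrain and -0.37 to 0.37 in hindbrain. Its other probe set (M21354_s_at) had 0.31 ± 0.18 in forebrain (adjusted p = 1, 95% interval -0.10 to 0.73). Col5a2, a further type V chain, had all 4 Pax6 homozygous arrays (8211 to 9364) above all 4 wild-type arrays (6537 to 7977), with a log2 difference over both regions of 0.23 ± 0.11 (adjusted p = 0.928). Of the 11 fibrillar collagen probe sets tested, 8 had a negative difference in hindbrain and 7 in forebrain, and 0 passed in either.

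**Figure D2:**
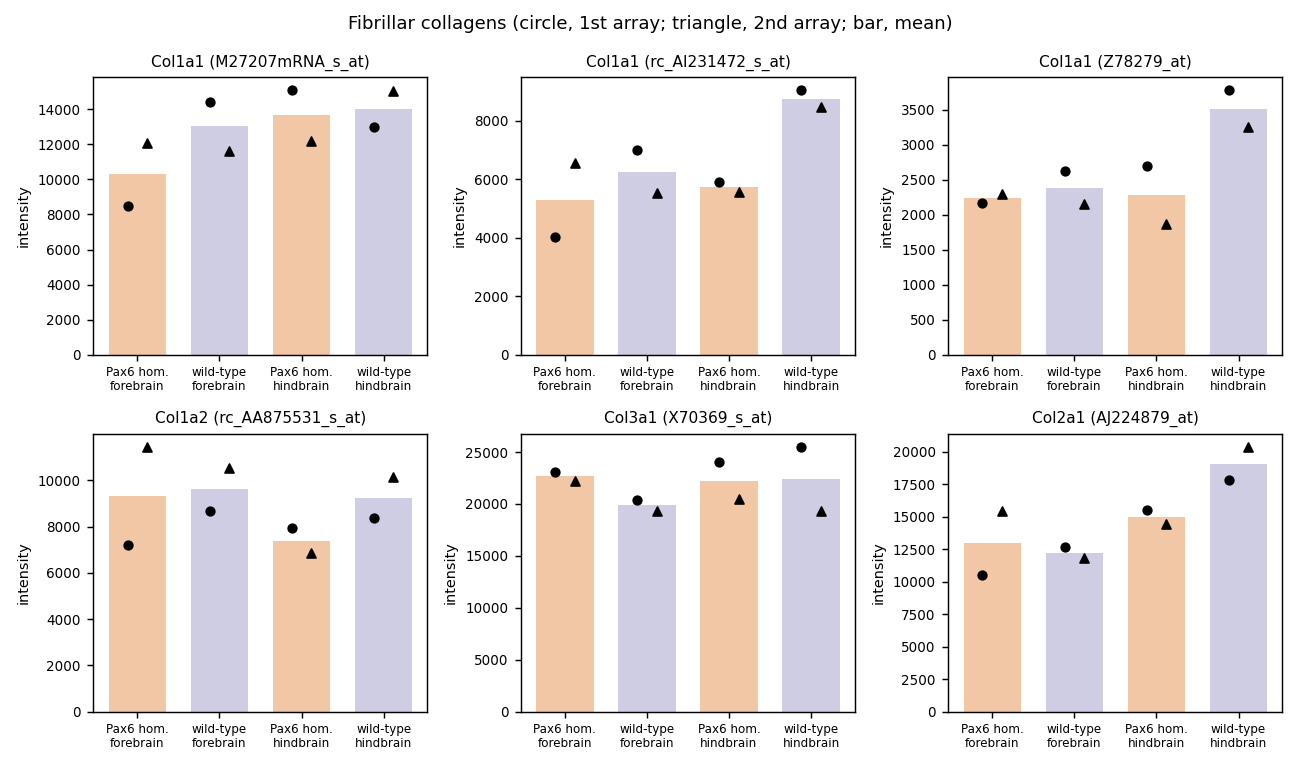
Intensities of 6 fibrillar collagen probe sets on each array, in Pax6 homozygous and wild-type forebrain and hindbrain (linear axis from 0; circles are replicate 1, triangles replicate 2, bars the mean of 2 arrays). The genotypes are separated in hindbrain for Col1a1 rc_AI231472_s_at and Z78279_at but overlap for M27207mRNA_s_at.

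Among the other collagens, 0 of 6 probe sets passed in either region. Col26a1 gave 4801 and 4468 in Pax6 homozygous hindbrain, against 5690 and 5074 in wild-type hindbrain, without overlap (log2 difference -0.21 ± 0.19). Col8a1, a short-chain collagen of vessels and cornea, gave 493 and 500.5 in Pax6 homozygous hindbrain, against 10.4 and 134 in wild-type hindbrain, where no array lay above noise. It was at least 1.21-fold higher in the Pax6 homozygous group (adjusted p = 0.989), and no forebrain array was above noise. Col9a1 had 256 and 329 in Pax6 homozygous forebrain, against 255 and 25.3 in wild-type forebrain, with 1 of these 4 arrays above noise, and its hindbrain difference was -0.79 ± 0.94. Col10a1 (S79214cds_s_at), the collagen of hypertrophic cartilage, had a log2 difference of -0.43 ± 0.51 in forebrain, and Col15a1 and Col12a1, which sit at basement membranes and fibril surfaces, had 0.25 ± 0.48 and 0.16 ± 0.52.

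Of the basement membrane probe sets 5 of 10 were tested, and 3 lay above noise on all 8 arrays. Col4a5, a type IV collagen chain, gave 2632 and 2968 in Pax6 homozygous forebrain, against 2612 and 2180 in wild-type forebrain, and 3100 and 3218 in Pax6 homozygous hindbrain, against 2041 and 2609 in wild-type hindbrain. All 4 Pax6 homozygous arrays lay above all 4 wild-type arrays, with a log2 difference over both regions of 0.34 ± 0.16 (adjusted p = 0.928). Such complete separation over both regions was found for 3 members, all with the Pax6 homozygous arrays above: Col4a5, Col5a2 and a Sdc1 probe set (3.95% of members, where 2.38% of all probe sets were separated in that direction). Lamc1, the gamma chain of most laminins, had differences of 0.21 ± 0.24 in forebrain and 0.20 ± 0.24 in hindbrain. The 2 tested probe sets of Lamb2, a laminin beta chain, disagreed in forebrain. The one above noise on all arrays (rc_AI104225_at) gave 0.18 ± 0.24 and rc_AA900848_at gave -0.59 ± 0.72. In hindbrain rc_AA900848_at was at least 1.71-fold higher in the Pax6 homozygous group (adjusted p = 0.989), with both of its arrays and no wild-type array above noise. Lama1, a laminin alpha chain of early epithelia, was above noise on 1 of 8 arrays, so its forebrain difference of -1.43 ± 1.52 carries no level.

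Cspg5, neuroglycan C of neural tissue, had the smallest p of the chondroitin sulphate proteoglycans in forebrain. The probe set U33553_at gave 975 and 818 in Pax6 homozygous forebrain, against 1595 and 1402 in wild-type forebrain, without overlap (log2 difference -0.74 ± 0.32, adjusted p = 1). In hindbrain it gave 2641 and 1685 in the Pax6 homozygous group, against 2877 and 2101 in wild-type, with overlap (log2 difference -0.22 ± 0.32). A further Cspg5 probe set (E13541cds_s_at) had -0.96 ± 0.79 in forebrain, with 1 of 2 Pax6 homozygous arrays above noise. Vcan, versican of loose mesenchyme, ran the other way, at 5292 and 5228 in Pax6 homozygous forebrain, against 4507 and 4013 in wild-type forebrain (log2 difference 0.31 ± 0.17). In hindbrain Vcan had 7449 and 6500 in the Pax6 homozygous group, against 6523 and 6173 in wild-type (log2 difference 0.13 ± 0.17). Bcan, brevican of neural matrix, had 1795 and 927 in Pax6 homozygous hindbrain, against 501 and 590 in wild-type hindbrain, where 1 of 2 arrays was above noise. That was a difference of 1.25 ± 0.43 (adjusted p = 0.989). In forebrain Bcan had 916 and 567 in the Pax6 homozygous group, against 864 and 972 in wild-type, so the groups overlapped (log2 difference -0.35 ± 0.43).

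Small leucine-rich proteoglycans bind collagen fibrils and set their spacing. Bgn (biglycan) gave, in U17834_at, 1620 and 1191 in Pax6 homozygous forebrain, against 373 and 733 in wild-type forebrain, where 1 of 2 arrays was above noise (log2 difference 1.41 ± 0.47, adjusted p = 1). The other Bgn probe set (rc_AA859830_s_at) gave 440 and 421 in Pax6 homozygous forebrain, against 860 and 438 in wild-type forebrain, a difference of -0.51 ± 0.52. The 2 probe sets thus disagreed in sign, and neither passed. Lum, lumican of cornea and mesenchyme, varied widely within the Pax6 homozygous pairs, with 9983 and 4563 in Pax6 homozygous forebrain, against 9543 and 8781 in wild-type forebrain (log2 difference -0.44 ± 0.38). In hindbrain it gave 5515 and 2968 in the Pax6 homozygous group, against 5319 and 6035 in wild-type (log2 difference -0.49 ± 0.38). Dcn, decorin, was tested through 1 of 4 probe sets (X59859_i_at), with differences of -0.32 ± 0.45 in forebrain and 0.46 ± 0.45 in hindbrain.

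Cell-surface heparan sulphate proteoglycans act as co-receptors for growth factors and morphogens. Of the 11 tested probe sets, 10 had a positive difference in hindbrain, with a median of 0.27, and 7 in forebrain, with a median of 0.11. Arrays did not overlap in hindbrain for 7 of them, all with the Pax6 homozygous arrays above (20% of all probe sets lay that way), and 0 passed. These 7 read only Sdc1, Sdc2, Sdc4, Gpc2 and Gpc3, so some genes count more than once. Sdc1, a syndecan of epithelia, gave 10938 and 11205 in Pax6 homozygous forebrain, against 8971 and 8952 in wild-type forebrain (S61865_s_at). In hindbrain it gave 8578 and 10934 in the Pax6 homozygous group, against 6904 and 8516 in wild-type. Both pairs were separated, with log2 differences of 0.30 ± 0.18 and 0.34 ± 0.18 and of 0.32 ± 0.13 over both regions (adjusted p = 0.928). A second Sdc1 probe set (X60651mRNA_s_at) gave 0.39 ± 0.23 in forebrain and 0.38 ± 0.23 in hindbrain, so the 2 probe sets differed by less than their standard errors. Sdc4, a syndecan of focal adhesions, was uneven between arrays. S61868_g_at gave 3711 and 1333 in Pax6 homozygous hindbrain, against 830 and 838 in wild-type hindbrain (log2 difference 1.42 ± 0.51, adjusted p = 0.989). S61868_at, from the same sequence, gave 3069 and 334.5 in Pax6 homozygous hindbrain, against 1316 and 1399 in wild-type hindbrain (log2 difference -0.42 ± 0.81). For both Sdc4 probe sets the spread within the Pax6 homozygous hindbrain pair exceeded the distance between the group means.

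Glypican probe sets also disagreed, here in the size of the forebrain difference and not in its sign. Gpc3, a glypican of mesenchyme and growing organs, had the smallest p of all members in forebrain through rc_AA963857_at, with 2574 and 1798 in Pax6 homozygous forebrain, against 3948 and 3250 in wild-type forebrain (log2 difference -0.74 ± 0.24, unadjusted p = 0.0142, adjusted p = 1). The groups were separated there. The Gpc3 probe set M22400_at gave 14715 and 12233 in Pax6 homozygous forebrain, against 13778 and 13073 in wild-type forebrain, with overlap and a difference of -0.0004 ± 0.15 (95% interval -0.34 to 0.33). In hindbrain their differences were 0.22 ± 0.24 and 0.23 ± 0.15. The other tested Gpc3 probe set (rc_AI071104_at) had no forebrain array and 2 of 4 hindbrain arrays above noise. It gave -0.28 in forebrain, which carries no level, and 1.33 in hindbrain (95% interval -1.46 to 4.11). Gpc2, the cerebroglycan of immature neurons, gave 12028 and 9711 in Pax6 homozygous forebrain, against 7622 and 9077 in wild-type forebrain, without overlap (log2 difference 0.38 ± 0.18, adjusted p = 1). Gpc1, Gpc6 and Sdc2 had forebrain differences of 0.24 ± 0.20, -0.14 ± 0.39 and 0.11 ± 0.29.

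**Figure D3:**
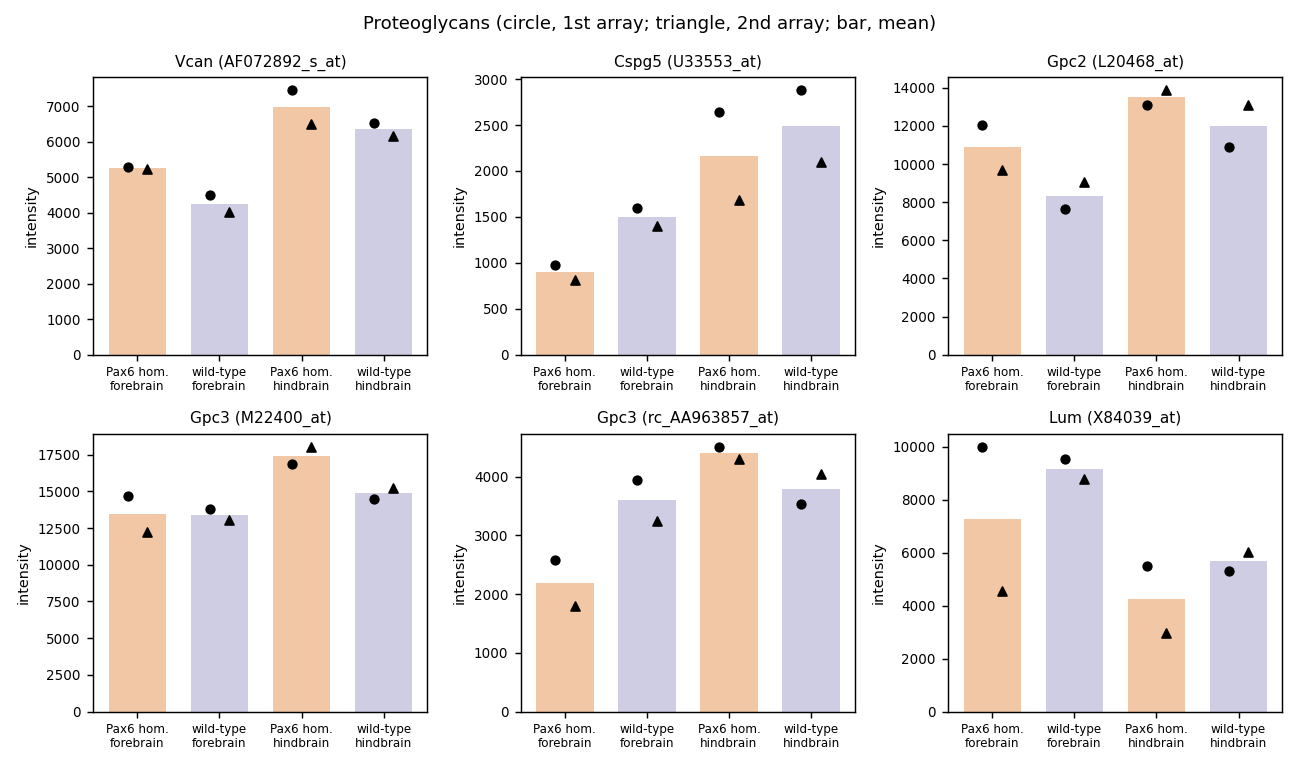
Intensities of 6 proteoglycan probe sets on each array, in Pax6 homozygous and wild-type forebrain and hindbrain (linear axis from 0; circles are replicate 1, triangles replicate 2, bars the mean of 2 arrays). Vcan and Cspg5 are lower on all 4 forebrain arrays than on all 4 hindbrain arrays, and the 2 Gpc3 probe sets differ in whether the forebrain genotypes are separated.

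Sparc, a collagen-binding glycoprotein of mesenchyme, was read above noise on all arrays by 4 probe sets, all with negative genotype differences in both regions. The one with the smallest p (rc_AA946313_s_at) gave 6425 and 5278 in Pax6 homozygous forebrain, against 8190 and 8207 in wild-type forebrain, without overlap (log2 difference -0.49 ± 0.23). In hindbrain it gave 7963 and 5326 in the Pax6 homozygous group, against 9591 and 7490 in wild-type, with overlap (log2 difference -0.38 ± 0.23). Over both regions that was -0.44 ± 0.17 (adjusted p = 0.928), while the other 3 probe sets had forebrain differences from -0.24 to -0.06. Fn1, fibronectin, gave 6975 and 8741 in Pax6 homozygous forebrain, against 10147 and 7795 in wild-type forebrain, through X05834_at (log2 difference -0.19 ± 0.22). The other 2 tested Fn1 probe sets gave 0.26 ± 0.42 and 0.52 ± 0.47. Sparcl1, a relative of Sparc found in brain and vessels, had a forebrain difference of 0.86 ± 0.60 that came from 1 low wild-type array, with 1678 and 1651 in Pax6 homozygous forebrain, against 449 and 1861 in wild-type forebrain. Without that array the difference was -0.16. Spp1, osteopontin, had 0.06 ± 0.43 in forebrain and 0.18 ± 0.43 in hindbrain. Tnc, tenascin-C, lay above noise on 6 arrays in U09361_s_at (0.19 ± 0.52 in forebrain and 0.61 ± 0.52 in hindbrain) and on 0 in U15550_at, whose fitted hindbrain difference of -2.18 ± 1.19 therefore carries no level.

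Mmp14, the membrane-bound enzyme that activates pro-MMP2, had the smallest p of the metalloproteinases in both genotype comparisons. It gave 5574 and 4749 in Pax6 homozygous forebrain, against 7673 and 6682 in wild-type forebrain, without overlap (log2 difference -0.48 ± 0.24). In hindbrain it gave 8660 and 5455 in the Pax6 homozygous group, against 8514 and 9970 in wild-type, with overlap (log2 difference -0.42 ± 0.24). Over both regions Mmp14 had the smallest unadjusted p of all members (-0.45 ± 0.17, adjusted p = 0.928), among 7 members (9.21%) with an unadjusted p under 0.05, where 5.02% of all probe sets had one and 0.034% passed. The other 6 were 2 probe sets of Sdc1, and 1 each of Sparc, Col1a1, Sdc4 and Bgn, each described with its family. Mmp2, a gelatinase of mesenchyme, gave little difference in U65656_at (0.0009 ± 0.27 in forebrain and -0.04 ± 0.27 in hindbrain), and X71466_at gave -0.47 ± 0.43 and 0.63 ± 0.43. Mmp16, a further membrane-bound enzyme, had 1272 and 1545 in Pax6 homozygous forebrain, against 1181 and 776 in wild-type forebrain (log2 difference 0.55 ± 0.32), and Mmp11 had -0.21 ± 0.27.

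None of the 4 TIMP probe sets passed for genotype. Timp3, a TIMP that stays bound to the matrix, gave 1136 and 834 in Pax6 homozygous forebrain, against 851 and 546 in wild-type forebrain, with overlap (log2 difference 0.51 ± 0.36), and 0.30 ± 0.36 in hindbrain. Timp1 had 0.13 ± 0.19 and 0.23 ± 0.27 in forebrain in its 2 probe sets, and both were at -0.01 in hindbrain. Timp2 had -0.26 ± 0.35 in forebrain and -0.19 ± 0.35 in hindbrain.

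Integrins, the receptors that link matrix to the cytoskeleton, had 0 of 13 probe sets past the genotype test. Itgb1, the beta chain shared by most matrix-binding integrins, gave 7393 and 2578 in Pax6 homozygous forebrain, against 8841 and 4290 in wild-type forebrain, and 9386 and 6358 in Pax6 homozygous hindbrain, against 8662 and 4783 in wild-type hindbrain. In each group the replicate 1 array was the higher, and the spread within a pair exceeded the genotype difference (-0.50 ± 0.53 in forebrain and 0.26 ± 0.53 in hindbrain). Itga1, a collagen receptor chain, had 0.38 ± 0.37 in forebrain. Itgam, an integrin of myeloid cells, lay above noise on 4 of 8 arrays, with 79.1 and 69.4 in Pax6 homozygous forebrain, against 119 and 362 in wild-type forebrain, where 1 of these 4 arrays was above noise, so no fold is given. Itgae, an integrin of mucosal lymphocytes, had hindbrain differences of -1.56 ± 0.85 and 0.74 ± 0.50 in its 2 tested probe sets, of opposite sign, the first with no hindbrain array above noise.

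A test of the difference between the regional genotype effects gave 0 of 76 members, where 0% of all probe sets passed, and 2 members (2.63%) with an unadjusted p under 0.05, where 1.9% of all had one. These were Gpc3 rc_AA963857_at, with an interaction of -0.95 ± 0.34 (forebrain minus hindbrain genotype difference), and Bcan, with -1.59 ± 0.61, each with an adjusted p = 0.9995 in limma. Of the 15 member genes with more than 1 tested probe set, all probe sets had the same sign of genotype difference for 10 in forebrain and for 9 in hindbrain. For the comparison of regions they had the same sign for 13.

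The region in which matrix genes were read more strongly was compared over both genotypes, 4 forebrain arrays against 4 hindbrain arrays. No member passed (0 of 76, where 1.51% of all probe sets did), the smallest adjusted p being 0.0964 for Cspg5. With the replicate number as a block 1 member passed, Cspg5, with an adjusted p of 0.0162 over both genotypes and of 0.046 in the Pax6 homozygous group. An unadjusted p under 0.05 was reached by 13 members (17.1%), where 8.09% of all probe sets reached it. Of these, 11 (9 genes) were lower in forebrain, 14.5% of members, where 5.37% of all probe sets were, and 2 were higher, 2.63%, where 2.72% of all were. The 11 include Itga7 X65036_at, which had no forebrain array over 255.2, the level of the filter. It was tested only through its hindbrain arrays, so the filter itself favoured a lower forebrain value. The median log2 difference, forebrain minus hindbrain, was -0.13 among members and -0.02 over all probe sets tested, with 48 negative (53.2% of all probe sets) and 28 positive (46.8% of all). In wild-type alone 0 of 76 members passed (0.782% of all did), with a median of -0.06 (0.002 over all), and in the Pax6 homozygous group alone 0 passed (0.459% of all did), with a median of -0.16 (-0.04 over all). Of the 11 fibrillar collagen probe sets 9 were lower in forebrain, 1 of them with an unadjusted p under 0.05. The 95% interval of the region difference lay within 2-fold for 45 probe sets (34 genes).

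For 5 members (6.58%), forebrain and hindbrain were separated, with all 4 forebrain arrays below all 4 hindbrain arrays, as in 4.37% of all probe sets, and 0 had them all above, as in 2.23% of all. Cspg5 (U33553_at) ranged from 818 to 1595 in forebrain, against 1685 to 2877 in hindbrain, a log2 difference of -0.98 ± 0.22 (adjusted p = 0.0964). It was -1.24 ± 0.32 in the Pax6 homozygous group and -0.72 ± 0.32 in wild-type. The other Cspg5 probe set (E13541cds_s_at) had -0.33 over both genotypes, with a 95% interval of -1.6 to 0.94. Its difference was -0.75 in the Pax6 homozygous group and 0.10 in wild-type. Vcan ranged from 4013 to 5292 in forebrain, against 6173 to 7449 in hindbrain, a difference of -0.49 ± 0.12 (adjusted p = 0.131, 95% interval -0.77 to -0.21). Spp1 ranged from 450 to 909 in forebrain, against 940 to 1447 in hindbrain (-0.99 ± 0.30, adjusted p = 0.265). Timp1 (rc_AI169327_at) ranged from 4755 to 6362 in forebrain, against 6766 to 7264 in hindbrain (-0.30 ± 0.14, adjusted p = 0.642). Itga7, the alpha chain of the muscle laminin receptor, ranged from 296 to 386 in forebrain, where 1 of 4 arrays was above noise, against 499 to 912 in hindbrain, where 3 of 4 were (X65036_g_at, -1.13 ± 0.32, adjusted p = 0.215). A second Itga7 probe set had no forebrain array and 2 of 4 hindbrain arrays above noise, so no fold is given. Markers of muscle and neurons also differed between the dissected parts. All 13 muscle marker probe sets were lower in forebrain, 4 of them past the test, with sums of 2601 to 5601 in forebrain, against 29530 to 35730 in hindbrain. Myog, Myod1, Actc1 and the Myh3 probe sets K03467_s_at, K03468_s_at and M12098_s_at had no forebrain array over 255.2, the level of the filter. They were tested only through their hindbrain arrays, so the filter itself favoured a lower forebrain value. Among those past the test, this holds for Actc1 and Myh3 M12098_s_at but not for Acta1 and Myh3 X04267_at. Of 15 neuron marker probe sets 13 were lower in forebrain, 5 past the test, with sums of 33230 to 36420 in forebrain, against 79540 to 115400 in hindbrain. The 5 were probe sets of only Nefl, Nefm and Ina (-6.02 to -1.42), which weigh on these sums. The other neuron marker probe sets ran from -0.75 to 0.09. Nefl M25638_s_at had no forebrain array over 255.2, so it too was tested only through its hindbrain arrays. Of 8 mesenchyme marker probe sets 6 were lower in forebrain with 0 past the test, while Alx1, which marks cranial mesenchyme, was at least 17.2-fold higher in forebrain (adjusted p = 3.76e-05), with no hindbrain array above noise. Of 18 neural progenitor marker probe sets 12 were lower in forebrain, and 1 passed, Fabp7 (-1.72 ± 0.16, adjusted p = 0.000854). The part of these cell types in the region differences of Cspg5, Itga7 and the other members was not tested.

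**Figure D4:**
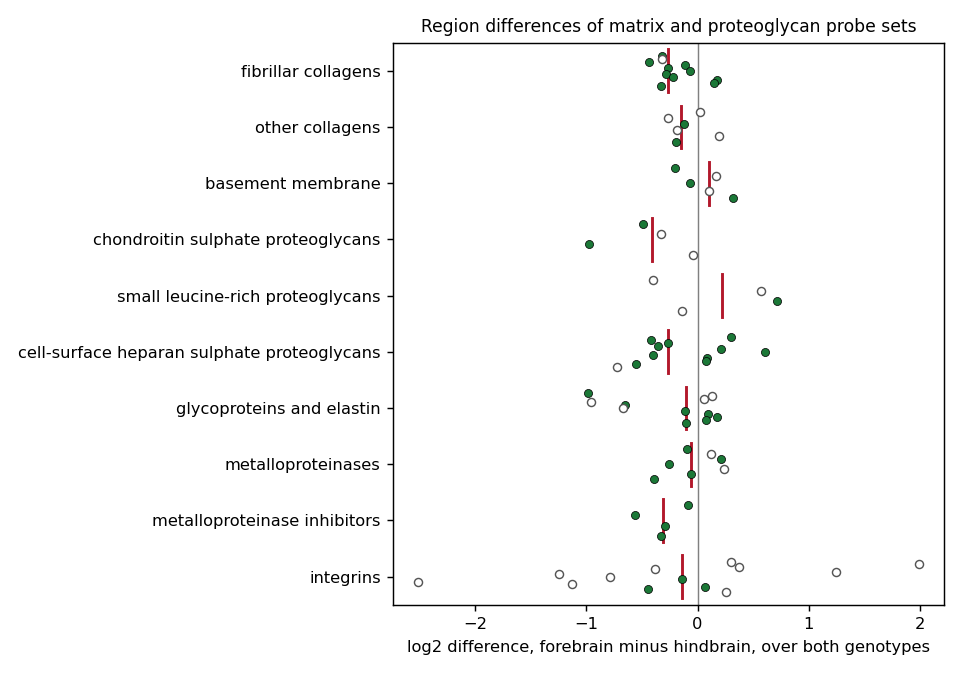
Log2 difference between forebrain and hindbrain arrays over both genotypes for the 76 tested probe sets, by family (vertical axis). Filled points lay above noise on all 8 arrays, open points did not, red lines mark family medians, and no point passed the test: all 4 chondroitin sulphate proteoglycan probe sets and all 4 TIMP probe sets lie below 0, with medians of -0.41 and -0.31.

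For the other members the arrays of the 2 regions overlapped. Col2a1 ranged from 10521 to 15481 in forebrain, against 14424 to 20368 in hindbrain (-0.43 ± 0.14, adjusted p = 0.292), and Gpc2 from 7622 to 12028 in forebrain, against 10887 to 13864 in hindbrain (-0.42 ± 0.13, adjusted p = 0.256). The 2 Gpc3 probe sets above noise on all arrays had -0.26 ± 0.10 (M22400_at) and -0.56 ± 0.17 (rc_AA963857_at). The other tested one (rc_AI071104_at) had -0.73, with a 95% interval of -2.70 to 1.24. Within the genotypes rc_AA963857_at had -1.03 ± 0.24 in the Pax6 homozygous group and -0.08 ± 0.24 in wild-type. Mmp14 had -0.39 ± 0.17, Itgb4 -0.78 ± 0.33, Timp3 -0.56 ± 0.25 and Sparcl1 -0.96 ± 0.42. Bcan had -0.04 over both genotypes, from 0.75 ± 0.43 in wild-type and -0.84 ± 0.43 in the Pax6 homozygous group. In wild-type alone, 2 of the 4 chondroitin sulphate proteoglycan probe sets were higher in forebrain. Lum ran the other way, from 4563 to 9983 in forebrain, against 2968 to 6035 in hindbrain (0.72 ± 0.27, adjusted p = 0.484). Itgae AF020046_i_at was higher in forebrain (adjusted p = 0.251), but with 2 of 4 forebrain arrays and no hindbrain array above noise no fold is given. Dcn had 0.57 ± 0.32, Lamb2 0.32 ± 0.17 and Lamc1 -0.20 ± 0.17. For type I and III collagen the region differences were -0.32 to -0.22 over the 4 Col1a1 probe sets, 0.18 ± 0.17 for Col1a2 and -0.11 to -0.06 over the 2 of Col3a1. Col26a1 and Col15a1 had -0.19 ± 0.14 and 0.20 ± 0.34, and Mmp2 U65656_at had -0.26 ± 0.19.

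Several members differed between replicate 1 and replicate 2 in every group. Sparc Y13714_at gave 11815, 14633, 11308 and 12463 on the replicate 1 arrays (Pax6 homozygous forebrain, wild-type forebrain, Pax6 homozygous hindbrain and wild-type hindbrain), and 16025, 18047, 14654 and 18862 on the replicate 2 arrays in the same order. Its replicate 1 array was the lower in all 4 groups, with a mean log2 difference of -0.43 (replicate 1 minus replicate 2), as it was for Timp2 (-0.61), both Timp1 probe sets (-0.18 and -0.37) and 2 further Sparc probe sets (-0.46 and -0.47). The replicate 1 array was the higher in all 4 groups for Itgb1 (1.00), Lamb2 rc_AA900848_at (1.14) and Col10a1 (0.85). In all, 26 of 76 members went the same way in every group (34.2%), where 38.8% of all probe sets tested did. The labels do not say what a replicate number stands for. Within each replicate number, genotype differences were positive in all 4 pairs of arrays for 12 members (15.8%, against 11% of all probe sets), among them both Sdc1 probe sets, Col5a2, Vcan and Timp3, and negative in all 4 for 7 (9.21%, against 8.25% of all). For example, Vcan had 0.07 to 0.38. Timp2 and Sparc Y13714_at were among the negative ones, from -0.41 to -0.08 for Timp2 and from -0.36 to -0.14 for Sparc. Cspg5 U33553_at had forebrain below hindbrain in all 4 pairs of arrays that share a genotype and a replicate number (-1.44 to -0.58), as did Vcan (-0.62 to -0.31). Forebrain lay below hindbrain in all 4 such pairs for 18 of 76 members (23.7%) and for 733 of the 5881 probe sets tested.

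**Figure D5:**
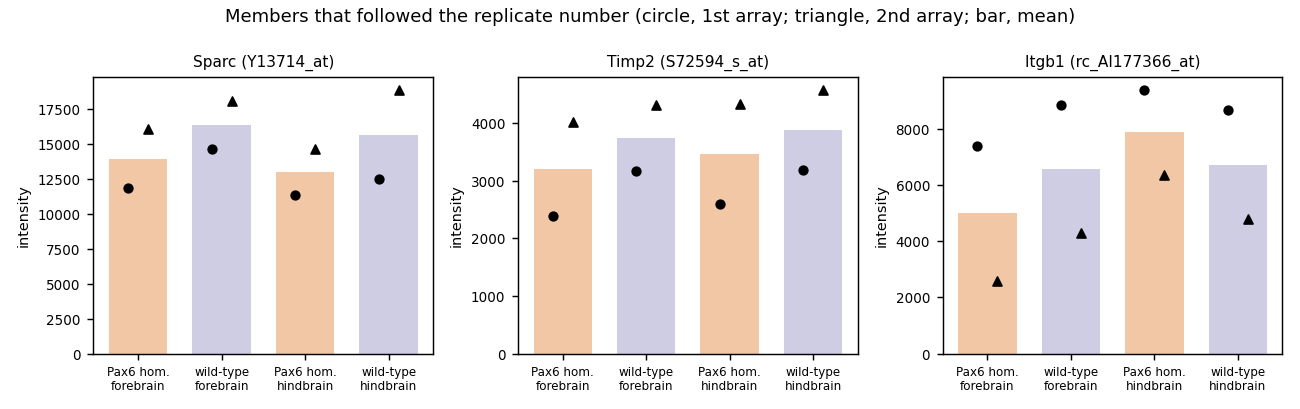
Intensities of Sparc Y13714_at, Timp2 and Itgb1 on each array, in Pax6 homozygous and wild-type forebrain and hindbrain (linear axis from 0; circles are replicate 1, triangles replicate 2, bars the mean of 2 arrays). In all 4 groups replicate 1 is below replicate 2 for Sparc and Timp2 and above it for Itgb1.

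Genes that process, link or bind the matrix but are no members of these families were read by 38 tested probe sets (28 genes), from a list drawn up with earlier results of these data known. For each comparison those with the smallest p are named. In the genotype comparisons 0 passed, with medians of 0.01 in forebrain and 0.02 in hindbrain. In forebrain the named genes, each with an adjusted p = 1, were Agrn, the heparan sulphate proteoglycan agrin (M64780_at, 0.50 ± 0.23), P4ha1, a collagen prolyl hydroxylase (0.34 ± 0.28), and Plau, urokinase. Plau was lower in the Pax6 homozygous group, but with no Pax6 homozygous and 1 of 2 wild-type forebrain arrays above noise no fold is given. A further Agrn probe set gave 10731 and 11655 in Pax6 homozygous forebrain, against 11392 and 11120 in wild-type forebrain. In hindbrain they were Tgfb2, a TGF-beta ligand (-1.37 ± 0.51), Plod2, a collagen lysyl hydroxylase (0.55 ± 0.22), and Omd, osteomodulin, each with an adjusted p = 0.989. Omd lay above noise on no array, so its difference carries no level. Between regions 1 passed, where 1.51% of all probe sets did: Ptprz1, a receptor phosphatase that is itself a chondroitin sulphate proteoglycan and binds tenascins. It gave 1745 and 2593 in Pax6 homozygous forebrain and 2255 and 2609 in wild-type forebrain, against 590 and 533 in Pax6 homozygous hindbrain and 353 and 533 in wild-type hindbrain (U09357_at, log2 difference 2.20 ± 0.25, adjusted p = 0.00253). Of the wild-type hindbrain arrays 1 of 2 was below noise. Its other probe set (U04998_at), with no hindbrain array above noise, was at least 1.71-fold higher in forebrain (adjusted p = 0.212). Lox, lysyl oxidase that cross-links collagen, was at least 2.16-fold higher in forebrain in S66184_s_at (adjusted p = 0.0742), with all 4 forebrain arrays and no hindbrain array above noise. Its other probe sets had 0.52 ± 0.34 (rc_AI234060_s_at) and 0.94 ± 0.38 (S77494_s_at, with 1 of 4 hindbrain arrays above noise). Ltbp1, which holds latent TGF-beta in the matrix, had -1.37 ± 0.31 (adjusted p = 0.0848), with 3 of 4 forebrain arrays above noise.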

How the data were processed

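The authors deposited 1 intensity per probe set on a linear scale for each of 8 Affymetrix rat genome arrays, per the labels' protocols. Scaling software was not given in the sources used here. No detection calls were used. Array means without the lowest and highest 2% of values lay between 2504.1 and 2504.8, so the deposited scaling was kept. Values below the pooled 25th percentile (45.88) were set to it before log2 was taken. Testing needed 2 or more arrays over 255.2, the pooled 40th percentile. The 59 controls stayed out. One model with 4 group means was fitted in limma 3.58.1 (R 4.3.3) with an intensity trend, 4 residual and 4.633 prior degrees of freedom. In simulated data the forebrain genotype test recovered 26% of changes of log2 size 1 and 50% of those of size 2. The region test over both genotypes recovered 48% and 78%. The simulation changed 50 probe sets at each log2 size of 1, 2, 3 and 4 together. So many changes ease the adjusted threshold, whereas in the data 1 probe set passed in each regional genotype comparison. Recovery of genotype changes in the data can therefore be lower. The simulated noise was independent between arrays, so it does not show how the model fares where same-numbered arrays deviate together. For a fold called "at least", only the group with no array above noise was raised to its noise levels. Group names came from sample titles. Same-numbered arrays deviated together (r from 0.275 to 0.465 across probe sets), but each comparison holds only 2 numbers and the labels tie them to nothing, so the model has no replicate block.

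Alternatives changed the floor, filter, scaling, block and arrays used. The members, gene lists and alternatives were chosen with earlier results of these data known. Members named with values were those past the threshold, the 2 with the smallest p in each family for forebrain, hindbrain and region, the most intense of each family, and other probe sets of those genes. Pathway genes outside the members were named if past the threshold or among the 3 smallest p. Others, named for completeness or after their values were seen, are Col1a2, Col5a1, Col5a2, Col12a1, Fn1, Gpc1, Gpc6, Sdc2, Mmp11, Itgb4 and Fabp7. All 107 member probe sets matched a rat RefSeq gene by Entrez identifier, with 0 symbols changed. No sequence is printed, since the rule printed them only for members past the threshold.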

Additional observations from a re-analysis of the deposited data

Results flagged for a closer look

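For 5 of 76 member probe sets the Pax6 homozygous arrays lay entirely on one side of the wild-type arrays in forebrain and entirely on the other side in hindbrain (6.58%, where 2.41% of all probe sets tested did). None of the 5 passed the interaction test in limma (adjusted p = 0.9995 each). For Gpc3 rc_AA963857_at the interaction, forebrain minus hindbrain, was -0.95, from log2 differences of -0.74 and 0.22. For Mmp16 it was 0.69, from 0.55 and -0.14. Mmp2 X71466_at gave -1.10, from -0.47 and 0.63, while U65656_at gave 0.0009 and -0.04. The others, Col9a1 (2.21) and Itgam (-2.68), lay above noise on 2 and 4 of 8 arrays, so their values rest in part on intensities without a level. Groups of 2 arrays are too small for a test of single outlying arrays.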

How the results depend on the processing

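Of 940 values of the 60 named results under the alternatives, 923 kept their direction and side of the threshold, 2 newly passed, 5 gave no difference and 10 reversed. No member passed in the genotype comparisons under any alternative run. Over both genotypes 1 member passed between regions with the floor at the pooled median, Vcan (log2 difference -0.49, adjusted p = 0.0492, limma), and 1 with the replicate block, Cspg5 U33553_at (-0.98, adjusted p = 0.0162). With the replicate block Cspg5 also passed in the Pax6 homozygous group (1 member, -1.24, adjusted p = 0.046). Over the members, deviations of same-numbered arrays from the group means had correlations of r = 0.0281 to 0.313 across the 6 pairs of groups. They were weakest between wild-type forebrain and Pax6 homozygous hindbrain (0.0281) and between wild-type and Pax6 homozygous forebrain (0.0777).

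Leaving out 1 array in turn reversed these genotype differences, given as lowest to highest: Col10a1 -1.10 to 0.24, Lama1 -3.016 to 0.15, Lum -1.004 to 0.125, Sparcl1 -0.16 to 1.89 and Timp1 rc_AI169327_g_at -0.056 to 0.52 in forebrain, and Dcn -0.085 to 1.01 and Timp2 -0.55 to 0.18 in hindbrain. The mean of a gene's probe sets turned Itgae in hindbrain to -0.41, by construction, since its probe sets disagree. The cause of the other changes was not tested. Signal over background limits every tested probe set beyond the 47 that lay above noise on all 8 arrays, and with 2 arrays a group most genotype intervals within a region reach past 2-fold.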
